A study of Mus musculus with 4 samples.

Results

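Mucin-type O-glycans are sugar chains that Golgi enzymes build on serine and threonine residues of secreted and membrane proteins. Polypeptide GalNAc-transferases, encoded by the Galnt genes, start each chain by adding N-acetylgalactosamine. Other enzymes then add galactose, build branches from N-acetylglucosamine and cap the chain with sialic acid. Short, sialylated or unextended chains are common on tumour cells, including melanoma cells.

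The 33 genes described here comprise 18 of the family that starts O-glycans (16 numbered Galnt genes, Galntl5 and Galntl6) and 15 that extend or sialylate them. The 18 were taken as a family, and not each is known to start chains. Galnt7 acts on already glycosylated peptides, and Galntl5 encodes a protein related to the transferases. The enzymes were listed by function, with earlier results of these peak lists known. Their regions were selected on the deposited peak positions: an accessible region belonged to a gene when it overlapped the gene body (mm10) extended by 10 kb on each side. Of the 103629 regions in the 4 peak lists together, 218 met this rule, 116 at the Galnt genes and 102 at the others. All 33 genes had at least 1 region in at least 1 list. Presence in the lists, which also defined the regions, is described below without a test. The outermost region inside the 10 kb limit lay 9223 bp from St6galnac1 and was missing from 1 sgArid1a list. The nearest outside lay 10507 bp from C1galt1 and would have counted as lost.

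Accessible chromatin was profiled by Omni-ATAC, in which the Tn5 transposase cuts and tags open DNA, in cultured B16F10 cells, an established melanoma line of the mouse. The 2 sgScramble samples carried a scrambled guide RNA, and the 2 sgArid1a samples one that targets Arid1a. ARID1A is a DNA-binding subunit of the BAF chromatin remodelling complex, and the comparison asks which open regions differ once its gene is targeted. The labels do not say whether the cells were clones or pools, or whether replicates were separate cultures, so the spread between replicates may be technical.

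Peak numbers were 82319 and 85613 for the sgScramble lists and 65353 and 71255 for the shorter sgArid1a lists. The lists hold no read counts, and depth is unknown. At Arid1a, within 10 kb, peaks covered 12410 and 12336 bp in sgScramble and 8038 and 9230 bp in sgArid1a, and 3 of 8 regions were lost. An edit made by a guide can leave peaks in place, so these values do not check the targeting. All 8 melanocyte markers examined, among them Tyr, Dct and Sox10, had a peak within 1 kb of a gene end in all 4 lists. Of 11 markers of blood, vessel, fibroblast or keratinocyte lineages, 6 had none in any list, among them Ptprc and Krt5, and 3 (Cd3d, Col1a1 and Pdgfra) had one in all 4 lists.

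The start windows of 21 of the 33 genes could be read from RefSeq (GRCm38.p6), each running from 250 bases before a transcription start to 50 after it. Printed below are starts with a peak in all 4 lists at 4 genes with a lost region, and for contrast the start of Galnt3, which had no peak in any list and was chosen after its values were seen. Each is given 5′ to 3′ on the gene's own strand, with capitals marking the motifs found, either GC boxes (GGGCGG, or CCGCCC on the other strand) or an E-box (CACGTG).
St6galnac3, chr3:153725084-153725383, minus strand: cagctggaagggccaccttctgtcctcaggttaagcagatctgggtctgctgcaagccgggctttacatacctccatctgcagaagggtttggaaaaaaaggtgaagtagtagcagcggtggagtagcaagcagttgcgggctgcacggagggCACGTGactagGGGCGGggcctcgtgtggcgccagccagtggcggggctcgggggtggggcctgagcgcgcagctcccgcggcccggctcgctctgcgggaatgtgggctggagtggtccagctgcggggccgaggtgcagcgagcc
C1galt1, chr6:7844974-7845273, plus strand: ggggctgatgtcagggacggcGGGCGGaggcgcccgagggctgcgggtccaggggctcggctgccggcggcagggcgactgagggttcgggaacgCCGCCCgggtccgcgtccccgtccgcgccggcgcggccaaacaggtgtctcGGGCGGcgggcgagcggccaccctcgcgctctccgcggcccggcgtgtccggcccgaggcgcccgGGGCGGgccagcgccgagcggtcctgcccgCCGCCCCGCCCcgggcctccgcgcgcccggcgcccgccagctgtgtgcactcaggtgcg
Gcnt2, chr13:40859518-40859817, plus strand: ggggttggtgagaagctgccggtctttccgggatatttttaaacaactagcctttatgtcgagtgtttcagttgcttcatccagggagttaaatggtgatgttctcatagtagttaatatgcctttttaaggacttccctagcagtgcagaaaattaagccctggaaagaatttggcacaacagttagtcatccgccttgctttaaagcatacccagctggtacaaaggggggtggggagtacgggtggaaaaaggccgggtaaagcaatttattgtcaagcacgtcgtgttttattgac
Galnt7, chr8:57653006-57653305, minus strand: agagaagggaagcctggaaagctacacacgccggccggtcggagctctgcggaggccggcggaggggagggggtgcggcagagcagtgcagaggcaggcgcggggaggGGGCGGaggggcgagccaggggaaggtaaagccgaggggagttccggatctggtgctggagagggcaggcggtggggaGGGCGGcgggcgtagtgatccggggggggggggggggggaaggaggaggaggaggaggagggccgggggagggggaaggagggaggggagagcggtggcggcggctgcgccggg
Galnt3, chr2:66124744-66125043, minus strand: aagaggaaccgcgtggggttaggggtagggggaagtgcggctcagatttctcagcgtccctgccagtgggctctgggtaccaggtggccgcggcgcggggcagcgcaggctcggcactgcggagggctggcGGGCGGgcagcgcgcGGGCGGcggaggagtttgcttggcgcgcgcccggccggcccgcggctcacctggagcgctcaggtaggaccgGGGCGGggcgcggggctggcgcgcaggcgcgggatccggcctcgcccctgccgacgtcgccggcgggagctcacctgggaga

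Open starts of these enzymes had more GC bases and CpG sites at the median than closed ones, as did all starts together. The 21 genes had 31 windows, of which 11 held a peak in all 4 lists, 18 in none and 2 in some. The open windows had a median GC content of 66.0% and a median of 23 CpG sites, against 53.3% and 8 CpG sites in the closed ones. Over all 32851 start windows the medians were 61.7% and 22 CpG sites for windows open in all lists and 47.7% and 3 for closed ones. Among the printed sequences, the Galnt3 start was closed with 41 CpG sites, and the Gcnt2 start was open with 8. Closed windows of Galnt9 (41 CpG sites), Galnt6 (31), Galnt13 (28) and Galnt14 (23) also reached the median of the open ones.

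In all, 7 motifs were searched on both strands, and matches were allowed to share bases, as a pair in C1galt1 does. GC boxes were found in 13 of the 31 windows (41.9%, against 35.7% of all windows), with 6 matches in C1galt1 alone. They lay in 6 of the 11 open windows (54.5%) and 6 of the 18 closed ones (33.3%), where all windows had 65.7% and 14.5%. The letters of AP-1, TGANTCA, were in 3 windows (9.68%, against 7.81% of all). The TATA box, searched as TATAAA, was found in 2 windows (6.45% against 13.6%). E-box letters were also in 2 windows (6.45% against 7.15%). A single window, that of Galnt11, held the cyclic AMP response element, TGACGTCA (3.23% against 1.79%). No window held the M-box TCATGTG, a form bound by the melanocyte factor MITF, which was present in 3.77% of all windows. The ETS motif, searched as CCGGAAG, was likewise in no window, against 8.86% of all.

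Regions open in the sgScramble cells were missing from the sgArid1a cells at 18 of the 32 enzyme genes that had such regions, and a new region appeared at 1 gene. A region counts as lost when both sgScramble lists have a peak there and no sgArid1a list does, and as gained in the reverse case. Of 147 regions present in both sgScramble lists, 26 were lost (17.7%), 30 were missing from 1 sgArid1a list and 91 were present in all lists. The lost share over the windows of all 21887 protein-coding genes was 11.8%. Of 98 regions in both sgArid1a lists 1 was gained (1.02%), against 1.33% over all gene windows. Of all genes with a region shared by the sgScramble lists, 30.1% had a lost one, and of those with a region shared by the sgArid1a lists, 3.96% had a gained one. The enzyme genes had a median of 3.5 such regions each and all genes a median of 3. Leaving out sgScramble replicate 1 gave 41 lost regions of 174 (23.6%, against 19.5% over all gene windows), and leaving out sgArid1a replicate 2 gave 48 of 147 (32.7% against 21.6%), since a call then needs fewer lists. The gained count was 1 of 98 without sgScramble replicate 1 (1.02% against 2.71%) and 7 of 98 without sgScramble replicate 2 (7.14% against 3.06%). It was 12 of 142 without sgArid1a replicate 1 (8.45% against 7.86%) and 12 of 121 without sgArid1a replicate 2 (9.92% against 7.01%), so its side of the background depended on the library left out. With lists cut to equal length the lost count was 11 of 113 (9.73%, against 6.14% over all gene windows).

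No lost region lay within 1 kb of a gene end. Of 27 regions in both sgScramble lists within 1 kb of a gene end 0 were lost, a count that allows up to 11.1% (counting error only), and 26 were in all lists. Among the 120 regions farther away, 26 were lost (21.7%). Over all gene windows the corresponding shares were 3.08% and 14.8%. In the gene bodies 22 of 117 regions were lost, and in the flanks 4 of 30, so that the body held most regions, lost or not. Of all 218 regions, 10 also overlapped another protein-coding gene, so a region in a window need not act on the enzyme gene.

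Lost regions were mostly weak peaks in the sgScramble cells. Strength is given here as the percentile of the authors' fold within a list, averaged over both sgScramble lists. Fold is the enrichment that the authors' peak caller gave each peak. The median was 28 for lost regions, 48.2 for those missing from 1 sgArid1a list and 60.9 for those in all lists. Over all gene windows the medians were 24.9, 34.1 and 64.3. A percentile above 50 was held by 6 of the 26 lost regions (23.1%) and by 15.5% of lost regions over all gene windows.

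**Figure D1:**
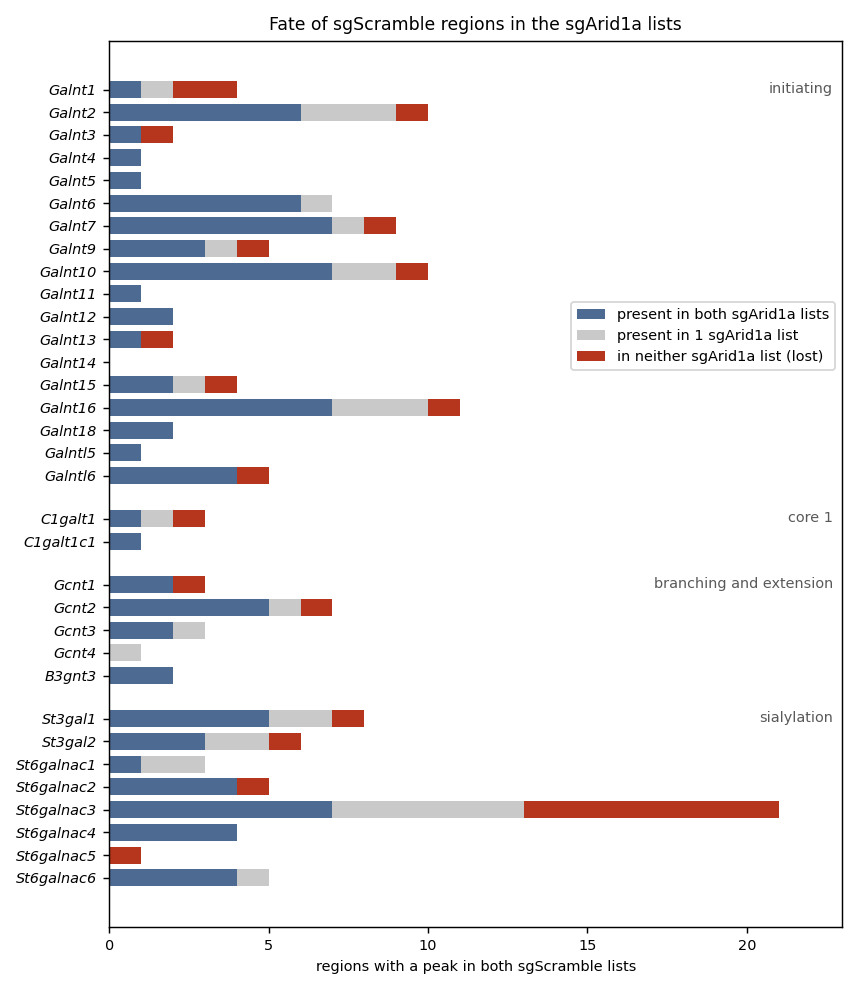
Bars count, for each enzyme gene, the regions called in each of the sgScramble lists, split by whether the region was also called in both sgArid1a lists (blue), in 1 (grey) or in neither (red). St6galnac3 has the longest bar (21 regions) and 8 of the 26 lost regions, while no other gene has more than 2.

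The Galnt genes, which start the chains, lost regions at 10 of 17 genes, nearly always 1 per gene. The exception was Galnt1, with 2 of 4. In all, 11 of their 76 regions in both sgScramble lists were lost (14.5%, against 11.8% over all gene windows). Another 13 were missing from 1 sgArid1a list and 52 were in all lists. Those missing from a single list were missing from replicate 1 in 11 cases and from replicate 2 in 2. The calls at their gene ends were alike in the 4 lists: 9 of the 18 genes had a peak within 1 kb of an end in all 4 lists and the other 9 in none. Open in every list were Galnt1, Galnt2, Galnt4, Galnt7, Galnt10, Galnt11, Galnt12, Galnt16 and Galnt18, whereas ends of Galnt3, Galnt5, Galnt6, Galnt9, Galnt13, Galnt14, Galnt15, Galntl5 and Galntl6 had no peak. Without sgScramble replicate 1, 17 of 89 Galnt regions were lost (19.1%, against 19.5% over all gene windows), and without sgScramble replicate 2, 15 of 85 (17.6% against 17.7%), so the share was then no higher than the background. It was 22 of 76 without sgArid1a replicate 2 (28.9% against 21.6%), 13 of 76 without sgArid1a replicate 1 (17.1% against 15.95%) and 5 of 58 with lists of equal length (8.62% against 6.14%).

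The strongest losses among the Galnt genes were at Galnt9, Galnt2 and Galnt3. Galnt9, a member best known from brain, lost a region at 110611443 to 110612013 on chromosome 5, in its gene body, with a fold of 4.34 and 4.40 in sgScramble replicates 1 and 2. Galnt2, a broadly expressed member, lost one at 124339955 to 124340876 on chromosome 8, with a fold of 4.60 and 3.73. At Galnt3, which glycosylates the hormone FGF23, the lost region lay at 66117702 to 66118172 on chromosome 2, 6621 bp from the closed start printed above, with a fold of 3.30 and 4.61. It was 1 of only 2 regions that Galnt3 had in both sgScramble lists. The percentiles of these 3 regions were 60.4, 54.8 and 47.6. Galnt1 lost a region 6987 bp outside the gene at percentile 35.2, and another in its body at 26.8.

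Covered length, the number of base pairs under peaks within a gene's window, shows the same genes library by library. At Galnt13, a neural member with a gene body of great length, peaks covered 1955 and 2041 bp in the sgScramble libraries and 701 and 721 bp in the sgArid1a libraries. Galnt15 had 3230 and 4039 bp in sgScramble and 1104 and 1677 bp in sgArid1a. Covered length fell by 64.4% at Galnt13 and by 61.7% at Galnt15, the deepest changes among the Galnt genes, and the groups were apart at both. Galnt3 had 1952 and 2373 bp in sgScramble against 1583 and 1026 bp in sgArid1a. Galnt10 had 8447 and 8086 bp against 5918 and 6356 bp. Galnt16 had 9778 and 10992 bp against 5977 and 8844 bp, with sgArid1a replicate 1 the lowest. The groups did not overlap at these 3 genes either, sgArid1a being the lower. Such a fall was common: 53.9% of all genes with a peak were lower in both sgArid1a libraries, as were 7 of the 18 Galnt genes.

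Galnt2 covered 9761 and 9948 bp in sgScramble and 6998 and 8342 bp in sgArid1a. Galntl6, whose window of 1160 kb was the longest of the 33, covered only 3867 and 4280 bp in sgScramble and 3515 and 3496 bp in sgArid1a. Both genes were also lower in both sgArid1a libraries. Galnt7, the enzyme whose open start is printed above and which acts on already glycosylated peptides, covered 11211 and 13516 bp in sgScramble and 9431 and 11840 bp in sgArid1a. Galnt1 covered 3196 and 3962 bp against 2292 and 3335 bp, and Galnt9 covered 4512 and 4660 bp against 3577 and 4689 bp. At these 3 genes the groups overlapped, although each had a lost region. Among the Galnt genes whose starts could be read, Galnt16 was the only one with a start window called in some lists and not in others. Of its 3 closely spaced windows the most upstream lacked a peak in sgScramble replicate 2, and the other 2 were open in all lists.

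Galnt11 was the one enzyme gene with a gained region. It lay at 25269605 to 25270596 on chromosome 5, 3687 bp beyond Galnt11 and 1199 bp from an end of Kmt2c, a neighbouring histone methyltransferase gene. Its fold was 3.02 in sgArid1a replicate 1 and 2.65 in replicate 2, and neither sgScramble list had a peak there. The region was weak, with a mean fold percentile of 15.6 over both sgArid1a lists. At the enzyme genes 0 of 56 regions were gained with a −log10 q of at least 5, against 0.274% over all gene windows. With peaks of at least 500 bp 0 of 68 were gained, against 1.15%. Covered length at Galnt11 was 1157 and 1091 bp in sgScramble and 1765 and 3599 bp in sgArid1a, higher in both sgArid1a libraries. The only other gene to be higher in both was its neighbour Galntl5, with 1157 and 1384 bp against 1488 and 1406 bp. The windows of these genes share the region at the Galnt11 start. Galntl5 encodes a testis protein related to the transferases. Over all genes with a peak, 3.17% were higher in both sgArid1a libraries.

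The remaining Galnt genes had neither lost nor gained regions. Galnt4, Galnt5, Galnt6, Galnt12 and Galnt18 had 1 to 7 regions in both sgScramble lists, and their mean covered length fell by 3.30% at Galnt4 and, at the other end, fell by 26.3% at Galnt18, with groups that overlapped at each. Galnt14, which has been tied to death receptor signalling, had a single peak of 407 bp, in sgArid1a replicate 1, and none in the other 3 lists.

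**Figure D2:**
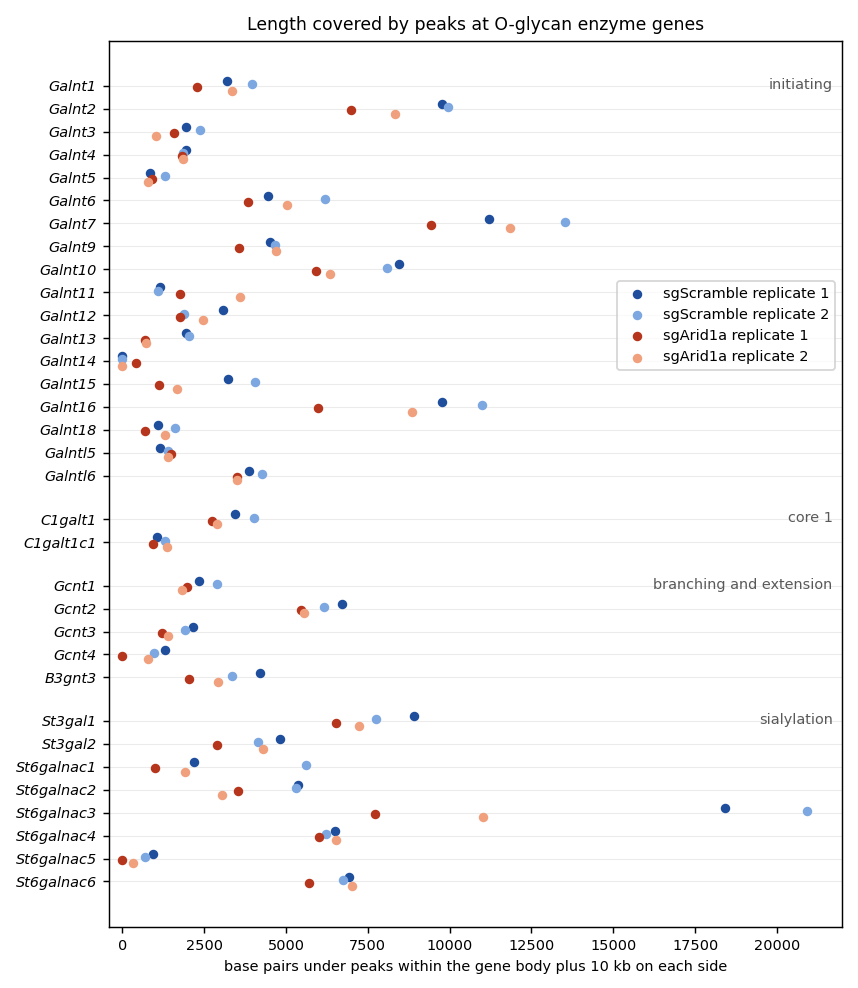
Points give the base pairs under peaks in each of the 4 libraries for every enzyme gene, by role (blue, sgScramble, red and orange, sgArid1a). At St6galnac3 the sgArid1a points (7722 and 11033 bp) sit far to the left of the sgScramble points (18425 and 20906 bp), and at Galnt11 they sit to the right.

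The enzymes that extend and sialylate the chains lost regions at 8 of 15 genes (53.3%, against 30.1% of all genes with a region in both sgScramble lists). Of their 15 lost regions, 8 were at 1 sialyltransferase gene, St6galnac3. In all, 15 of 71 regions in both sgScramble lists were lost (21.1%, against 11.8% over all gene windows). Another 17 were missing from 1 sgArid1a list and 39 were in all lists. Without St6galnac3, a division chosen after the values were seen, 7 of 50 were lost (14.0%), close to the 14.5% of the Galnt genes. None of the 41 regions in both sgArid1a lists was gained, which allows a share of up to 7.32%, counting error only. The lost count was 24 of 85 (28.2%) without sgScramble replicate 1 and also without replicate 2, where all gene windows had 19.5% and 17.7%. It was 26 of 71 without sgArid1a replicate 2 (36.6% against 21.6%) and 6 of 55 with lists of equal length (10.9% against 6.14%).

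Core 1 synthesis needs C1galt1, which adds galactose to the first sugar, and its chaperone C1galt1c1 (Cosmc). C1galt1 lost 1 of 3 regions, at 7860846 to 7861470 on chromosome 6 in the gene body, 15622 bp from the open start printed above. Its fold was 4.57 and 4.91 in the sgScramble lists, at percentile 68.7, the third strongest lost region of all 33 genes. Covered length at C1galt1 was 3444 and 4010 bp in sgScramble and 2744 and 2898 bp in sgArid1a, lower in both sgArid1a libraries. C1galt1c1 had 1 region, in all 4 lists, and covered 1044 and 1309 bp in sgScramble against 929 and 1361 bp in sgArid1a, so that the groups overlapped.

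Among the branching and extending enzymes, all 5 genes covered less in both sgArid1a libraries, although only 2 had a lost region. Gcnt2, which makes the I branches of lactosamine chains, lost the strongest region of the 33 genes, at 40913927 to 40914511 on chromosome 13, with a fold of 4.67 and 5.61 and percentile 75.9. It lay 3123 bp from the last of the 3 starts listed for Gcnt2. That start had a peak in sgArid1a replicate 1 only, the first start, printed above, was open in all lists, and the middle one was closed in all. Covered length at Gcnt2 was 6721 and 6154 bp in sgScramble and 5466 and 5550 bp in sgArid1a. At Gcnt1, the main core 2 enzyme, the lost region at 17360987 to 17361897 on chromosome 19 was weak, at percentile 6.85. Gcnt1 covered 2345 and 2875 bp in sgScramble and 1972 and 1815 bp in sgArid1a. Its upstream and downstream starts were closed in all lists, and the middle one was open in all.

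Gcnt4, another core 2 enzyme, had 1 region, which covered 1307 and 957 bp in sgScramble, 782 bp in sgArid1a replicate 2 and nothing in sgArid1a replicate 1. Gcnt3, which makes core 2 and core 4 branches, covered 2146 and 1927 bp against 1196 and 1386 bp. B3gnt3, which extends core 1 chains, covered 4210 and 3340 bp against 2038 and 2921 bp. Its start was open in all lists, whereas both starts of Gcnt4 were closed. Over all genes with a peak, covered length was lower in both sgArid1a libraries at 53.9%, so such a fall was the most common outcome. Among the enzymes it held for 18 of 33 genes, 7 of 18 Galnt genes and 11 of the 15 others.

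The sialyltransferase genes held 12 lost regions of 51 (23.5%, against 11.8% over all gene windows). These lay at 5 of 8 genes (62.5%, against 30.1% of all genes with a region in both sgScramble lists). Of the 12, 8 were at St6galnac3. Without that gene, a division chosen after the values were seen, 4 of 30 were lost (13.3%). St3gal1 and St3gal2 sialylate the galactose of core 1. St3gal2 lost 1 of 6 regions, at 110941233 to 110941828 on chromosome 8, with a fold of 3.57 and 3.48, and covered 4811 and 4153 bp in sgScramble against 2893 and 4301 bp in sgArid1a. St3gal1 lost 1 of 8, at percentile 11.7, and covered 8908 and 7752 bp against 6517 and 7241 bp. At St3gal1 both sgArid1a libraries were below both sgScramble libraries, and at St3gal2 the groups overlapped. Both genes had a peak at a gene end in all lists.

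The St6galnac enzymes attach sialic acid to N-acetylgalactosamine, and St6galnac5 is known for sialylating gangliosides. St6galnac5 lost its only region in both sgScramble lists, at 152831353 to 152831848 on chromosome 3, with a fold of 4.51 and 4.14 and percentile 59.2. That region lies where St6galnac5 overlaps its neighbour Pigk. Covered length at St6galnac5 was 931 and 688 bp in sgScramble, 0 bp in sgArid1a replicate 1 and 326 bp in replicate 2. St6galnac2 lost 1 of 5 regions, at 116674867 to 116675658 on chromosome 11, which had the lowest fold of all lost regions, 1.65 and 1.57. St6galnac2 covered 5373 and 5314 bp in sgScramble and 3529 and 3042 bp in sgArid1a. Both of these genes were lower in both sgArid1a libraries.

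St6galnac1, the enzyme that makes the sialyl-Tn antigen, lost no region, and covered 2191 and 5607 bp in sgScramble against 986 and 1902 bp in sgArid1a. St6galnac1 and St6galnac2 were the only 2 of the 33 genes whose ends were called in some lists and not in others, St6galnac1 in all but sgArid1a replicate 1 and St6galnac2 in sgScramble replicate 1 alone. St6galnac4 and St6galnac6 are neighbours whose windows share 2 regions, and neither had a lost region. St6galnac4 covered 6510 and 6234 bp in sgScramble and 5998 and 6514 bp in sgArid1a, and St6galnac6 covered 6927 and 6743 bp against 5713 and 7005 bp. The groups overlapped at both genes.

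St6galnac3 stood apart from the other enzymes by its number of accessible regions and by how many were lost. It lies on chromosome 3 at 153198274 to 153725133, on the minus strand. Its window of 547 kb held 36 regions, 21 of them in both sgScramble lists, of which 8 were lost (38.1%), 6 were missing from 1 sgArid1a list and 7 were in all lists. The lists held 27 and 28 peaks there in sgScramble and 11 and 15 in sgArid1a. Peaks covered 18425 and 20906 bp in sgScramble and 7722 and 11033 bp in sgArid1a, so that it fell by 52.3%, with every sgArid1a value below every sgScramble value. It fell by 31.0% with lists of equal length and fell by 60.7% without sgArid1a replicate 2. Over all gene windows covered length fell by 20.8% in the full lists and was not computed in those settings.

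The regions that St6galnac3 kept lay mostly toward its start. In the first 100 kb of the gene, a distance chosen after the values were seen, none of 8 regions in both sgScramble lists was lost, and 5 were in all lists. Farther into the gene body 7 of 12 were lost, and 2 were in all lists. The remaining loss lay in the upstream flank, 7465 bp from the start. Peaks in the first 100 kb covered 7778 and 8005 bp in sgScramble and 6005 and 7565 bp in sgArid1a. Farther in they covered 10072 and 12388 bp in sgScramble and 1717 and 3468 bp in sgArid1a. The start itself, printed above with its E-box and GC box, was open in all 4 lists, with a fold of 4.98, 4.63, 6.11 and 5.50 in sgScramble replicates 1 and 2 and sgArid1a replicates 1 and 2.

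The strongest of its lost regions lay at 153580661 to 153581498, 143635 bp into the gene, with a fold of 4.95 and 4.54 and percentile 68.9. The next, at 153492810 to 153493330, had a fold of 3.2 and 4.29 and percentile 42.4. The other 6 stood at percentiles of 12.9 to 33. A region in all lists at 153278929 to 153279702, 446 kb into the gene, had a fold of 7.16 and 6.91 in sgScramble and 4.90 and 6.03 in sgArid1a, so losses did not extend to every distal region.

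**Figure D3:**
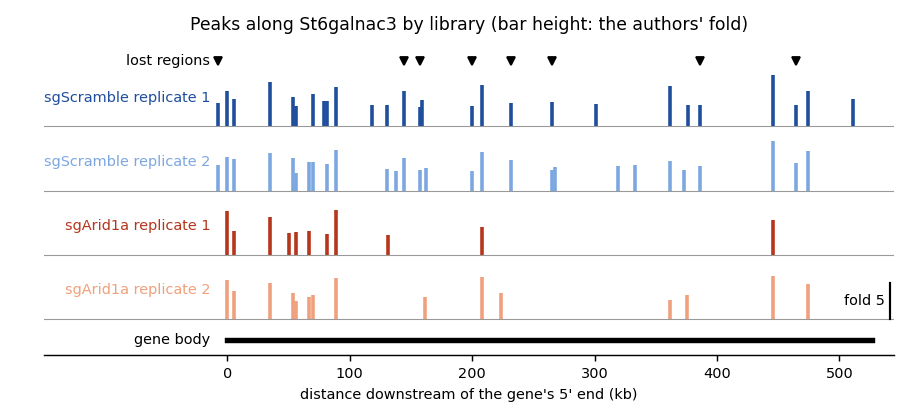
Bars mark peaks along St6galnac3 by library, with distance from the gene's 5′ end in kb on the horizontal axis and the authors' fold as bar height (scale bar, fold 5). Black triangles mark the 8 lost regions. Within the first 100 kb the sgArid1a rows have 8 peaks each, against 9 in each sgScramble row, and beyond it 3 and 7, against 17 and 18.

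Few genes with as many regions had such a share, though the next genes were close. A limit of 20 regions in both sgScramble lists was set here after the values were seen. Of the 173 protein-coding genes that met it, St6galnac3 had the highest lost share. Next came Macrod2 (15 of 41, 36.6%), Plxna4 (7 of 20, 35.0%), and Lpp and Robo2 (8 of 23 each, 34.8%). The median was 15.4%, and 8.67% had at least 8 lost regions. With a limit of 10 regions, 24 of 1075 genes had a lost share of at least 38.1%, and with a limit of 5 regions 232 of 4811 did, St6galnac3 included each time. By number alone, 16 genes in the genome had at least 8 lost regions. On one side of St6galnac3, St6galnac5 lost 1 of 1 region, Pigk 2 of 9, Ak5 0 of 11, Zzz3 1 of 5, Usp33 0 of 4 and Miga1 0 of 6. On the other side Asb17 lost 0 of 1, Msh4 0 of 4, Rabggtb 1 of 3, Acadm 1 of 4 and Slc44a5 2 of 12. The lost count at St6galnac3 was 13 of 28 without sgScramble replicate 1 (46.4%, against 19.5% over all gene windows), 13 of 27 without sgScramble replicate 2 (48.1% against 17.7%) and 2 of 12 with lists of equal length (16.7%, against 6.14% over all gene windows).

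Set against each other, the extending and sialylating enzymes lost more covered length than the Galnt genes, with a smaller gap among strong peaks. St6galnac3 made up a large share of the difference in the full lists. Peaks covered 74284 ± 5423 bp of the Galnt windows in sgScramble and 59157 ± 9180 bp in sgArid1a (SD, n = 2 each), and so fell by 20.4%. The windows of the other enzymes had 72266 ± 1933 bp and 48581 ± 7295 bp, and fell by 32.8%. Without St6galnac3 those windows fell by 25.5%. Over the windows of all protein-coding genes covered length fell by 20.8%. In each of these sets both sgArid1a libraries were below both sgScramble libraries, and an exact two-sided permutation test gave p = 0.33, the smallest that 2 libraries against 2 allow.

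The ratio of covered length, Galnt over the other enzymes, was 0.994 and 1.06 in sgScramble and 1.21 and 1.22 in sgArid1a, so the groups did not overlap (difference 0.190, exact permutation p = 0.33). The number of peaks went from 86 and 89 to 71 and 82 at the Galnt genes and from 85 and 85 to 51 and 62 at the others. Mean peak width was 819 and 878 bp against 742 and 801 bp at the Galnt genes, and 843 and 874 bp against 866 and 877 bp at the others. Without St6galnac3 the ratio was 1.34 and 1.48 in sgScramble and 1.48 and 1.54 in sgArid1a, and the groups overlapped (difference 0.0941, exact permutation p = 0.667). Per 1000 bp covered over all gene windows, the extending and sialylating genes without St6galnac3 had 0.927 and 0.914 bp in sgScramble and 0.853 and 0.878 bp in sgArid1a, still lower in both sgArid1a libraries (exact permutation p = 0.33). The difference was also smaller with peaks of a −log10 q of at least 5 (0.0511, p = 1), with only the upper 50% of peaks by fold (0.0120, p = 1), by the same exact permutation test, and with windows extended by 50 kb (0.0837). At the Galnt genes covered length fell by 7.69% with lists of equal length, fell by 34.3% at a −log10 q of at least 5 and fell by 11.6% without sgArid1a replicate 1. At the extending and sialylating genes it fell by 22.5%, 37.2% and 25.6% in the same settings. With the upper 50% of peaks by fold it fell by 27.8% at the Galnt genes and by 31.0% at the others. Covered length over all gene windows was not computed in these settings.

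**Figure D4:**
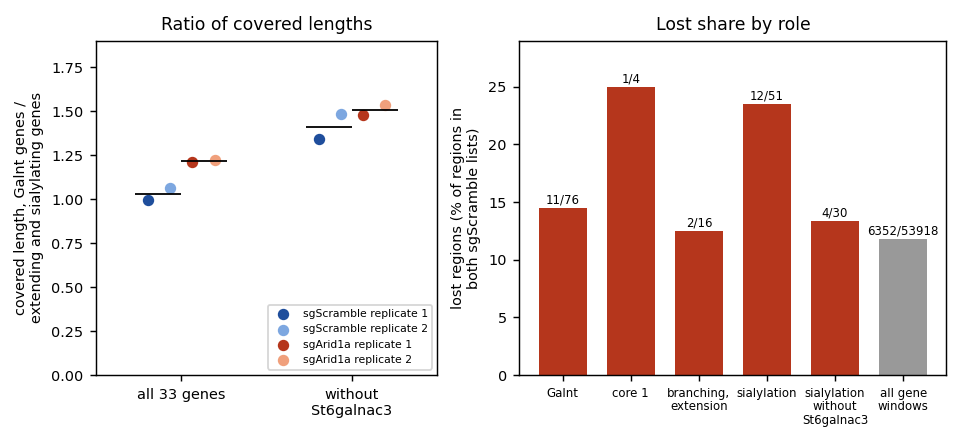
The left panel gives the ratio of covered length, Galnt over extending and sialylating genes, in each library (points) with the mean of each group (lines), and the right panel the share of sgScramble regions that were lost, by role, with counts above the bars. With all 33 genes the ratio is higher in both sgArid1a libraries (1.21 and 1.22), and without St6galnac3 the groups overlap.

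A share of each fall lay within regions that were kept. Within the 52 Galnt regions present in all lists, peaks covered 54812 and 58686 bp in sgScramble and 44163 and 47767 bp in sgArid1a, and so fell by 19.0%. Within the 39 such regions of the extending and sialylating genes they covered 47290 and 47498 bp against 39378 and 43957 bp and so fell by 12.1%. Over all gene windows the same measure fell by 11.5%. Kept regions were less covered in both sgArid1a libraries in each set (exact two-sided permutation p = 0.33 each). These kept regions were 52 of 76 for the Galnt genes and 39 of 71 for the others, and whether the sets differ in this respect was not tested.

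Genes around the pathway showed losses at shares from below to above that of the enzymes. Among 10 genes that supply and transport the sugar donors, 5 of 48 regions in both sgScramble lists were lost (10.4%), 1 each at Uap1, Slc35a3, Slc35a1, Gne and Cmas, where Gne and Cmas make and activate sialic acid. Among 14 further elongating and capping genes 9 of 64 were lost (14.1%), with 2 each at B4galt5, St3gal3 and St3gal4, and 1 of 49 was gained. The gained region was at Galnt17, which by family is a GalNAc-transferase gene and was grouped here with the further enzymes, not with the 18 Galnt genes. Its peaks covered 0 bp in both sgScramble libraries and 493 and 424 bp in the sgArid1a libraries. Among 9 genes that start other O-linked sugars, 8 of 35 were lost (22.9%), with 2 each at the O-mannosyltransferase gene Pomt1 and the O-glucosyltransferase gene Poglut1, and 4 of 31 were gained (12.9%), 2 of them at Ogt and 1 each at Pofut1 and Pomt2. Among 15 genes for proteins that carry O-glycans, 11 of 54 were lost (20.4%), with 4 of 9 at the dystroglycan gene Dag1 and 3 of 11 at Cd44, and 2 of 42 were gained (4.76%), at the same 2 genes. Over all gene windows 11.8% of regions were lost and 1.33% gained, as given above.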

How the data were processed

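Omni-ATAC libraries of 2 sgScramble and 2 sgArid1a samples of B16F10 cells were used as the authors' deposited broad peak lists, 1 per library. The submitters' processing notes name STAR 2.5.3a, HOMER and the builds GRCm38 and mm10; the peak caller is not given in the sources used here. For each peak the deposited lists give a fold, which is a ratio over background, besides a score, −log10 p and −log10 q. Read counts are not in the lists, so depth is unknown and no interval on depth is given. The score, −log10 p and −log10 q were used only for filters or not at all.

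Peaks of the 4 lists that shared at least 1 bp were merged into regions, and gene windows came from RefSeq (GRCm38.p6) gene coordinates of protein-coding genes, extended by 10 kb. A region was lost or gained by presence in the lists, and covered length was compared between groups with an exact two-sided permutation test. Shared regions were counted once in totals (1 for Galnt11 and Galntl5, 2 for St6galnac4 and St6galnac6). The genes named are all 33 enzymes; other genes come from lists. Members, lists and divisions were chosen with earlier results of these data known. Python 3.11.15 with numpy 2.4.6, pandas 2.3.3 and matplotlib 3.10.9 was used, and the code was tested on simulated data. Alternatives changed the q minimum, list length, peak width, merging distance, overlap and window, and left out each library. Exons were not used here, nor was peak sequence.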

Additional observations from a re-analysis of the deposited data

How the results depend on the processing

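Covered length at the Galnt genes, at the extending and sialylating genes and at St6galnac3 was lower in sgArid1a under every alternative run, and the ratio difference stayed positive under each. In the full lists covered length over all gene windows also fell, by 20.8%, and it was not computed under the alternatives. The constant sign of the falls therefore cannot be set apart from a fall over all genes. Over the libraries left out in turn, counts of lost regions ranged from 34 to 48 for all enzymes, 13 to 22 for Galnt genes and 21 to 26 for the others, and of gained regions from 1 to 12. The lowest lost counts, without sgArid1a replicate 1, were 34 of 147 (23.1%), 13 of 76 (17.1%) and 21 of 71 (29.6%), against 15.95% over all gene windows. With lists cut to equal length by −log10 p, 11, 5 and 6 regions were lost, with the shares given above. In those lists 2 of 96 were gained (2.08%, against 4.36% over all gene windows). With peaks of at least 500 bp, 17 of 98 were lost over all enzymes (17.3%, against 12.5% over all gene windows). The Galnt genes then lost 7 of 50 (14.0%) and the others 10 of 48 (20.8%). With those peaks 0 of 68 were gained, against 1.15% over all gene windows. With windows extended by 50 kb, 42 and 22 were lost and 2 gained. Without St6galnac3, chosen after seeing the data, 7 of 50 were lost at the extending and sialylating genes (14.0%, against 11.8% over all gene windows). The gained count was 0 of 56 with a −log10 q of at least 5, against 0.274% over all gene windows. It was 3 of 47 when only the upper 50% of peaks by fold were used (6.38% against 4.63%). With peaks within 1 kb merged it was 2 of 99 (2.02% against 1.38%), and in gene bodies alone 0 of 74, against 1.26%. The cause of these shifts was not tested, and the exact p cannot fall under 0.33. Deviations of same-numbered replicates from their group means were nearly uncorrelated (−0.0418 over 17747 gene windows). That value cannot show whether same-numbered samples were prepared together, which the labels do not say. With the replicate block, covered length changed by −25.2% and −16.0% at the Galnt genes (mean −20.6%) and by −38.8% and −27% at the others (mean −32.9%), with exact p = 0.5, the smallest that 2 pairs allow.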
